A study of Mus musculus with 12 samples.

Results

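The 10 genes described here encode fibroblast growth factors (FGFs) and their receptors, and they were taken by gene symbol from a given list, 10 of the 49585 genes in the count tables. They comprise 5 receptor genes (Fgfr1, Fgfr2, Fgfr3, Fgfr4 and Fgfrl1) and 5 ligand genes (Fgf1, Fgf2, Fgf7, Fgf9 and Fgf18). Their transcripts were measured by RNA-seq in 4 mesenchymal populations sorted from the bones of wild-type male C57BL/6 mice aged 8 to 10 weeks, with 3 libraries of 2000 cells per population. All cells were negative for CD45, Ter119 and CD31, and the mice carried no transgene and received no treatment. Itga8+ MSCs were Itga8+Alcam+Sca-1- cells, where Itga8 is integrin α8 and MSC stands for mesenchymal stem cell. Itga8- BLCs were the Itga8-Alcam+Sca-1- cells that the sample labels call osteoblasts and the study calls bone-lining cells. Sca-1+ MSCs were Alcam-Sca-1+. These 3 populations came from collagenase-digested fragments of femora, tibiae and iliac bones, whereas CD51+CD140a+ MSCs came from Accumax-digested marrow of femora and tibiae, so that population and isolation cannot be told apart in any comparison with them. The sources used here do not say whether the 3 libraries of a population came from separate mice, and the p-values measure only the spread between these libraries.

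FGFs are secreted proteins that bind receptor tyrosine kinases together with heparan sulphate on the cell surface. Ligand binding activates the Ras-MAPK cascade, which in turn induces the Etv transcription factors and feedback inhibitors such as the Sprouty proteins. In the skeleton, Fgfr1 and Fgfr2 act in cells of the osteoblast lineage, Fgfr3 restrains the proliferation of growth plate chondrocytes, and Fgf9 and Fgf18 are ligands of bone and cartilage development. Fgfrl1 encodes a receptor that binds FGFs but has no kinase domain. Fgf7, also known as keratinocyte growth factor, is a mesenchymal ligand of the epithelial splice form of Fgfr2, and counts per gene do not separate the splice forms.

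The 10 genes fell into 4 patterns. Fgfr2 and Fgf7 were highest in CD51+CD140a+ MSCs, Fgf2, Fgf9 and Fgf18 had their highest mean in Sca-1+ MSCs, Fgfr3, Fgfr4 and Fgfrl1 had their highest means in the Alcam+ populations (Itga8+ MSCs and Itga8- BLCs), and Fgfr1 and Fgf1 passed the test in none of the 6 comparisons. Fgf18 was the single gene of the 10 that differed between Itga8+ MSCs and Itga8- BLCs. For the pairs that shared a highest population, the 250 bases before the RefSeq transcription start are shown (GRCm38.p6, 5′ to 3′ on the strand of the gene), chosen because none of these bases lies in an annotated exon. Fgfr2 lies on the minus strand at chr7:130266809-130267058 and Fgf7 on the plus strand at chr2:126034408-126034657, and this is the pair of CD51+CD140a+ MSCs. Fgf9 lies on the plus strand at chr14:58072436-58072685 and Fgf18 on the minus strand at chr11:33147401-33147650, and this is the pair of Sca-1+ MSCs. The Fgfr2 and Fgf9 windows lie inside the annotated spans of these genes (130162451 to 133123350 and 58070547 to 58112720), which begin further upstream. Capitals mark the GC box, GGGCGG or its reverse complement CCGCCC.
Fgfr2: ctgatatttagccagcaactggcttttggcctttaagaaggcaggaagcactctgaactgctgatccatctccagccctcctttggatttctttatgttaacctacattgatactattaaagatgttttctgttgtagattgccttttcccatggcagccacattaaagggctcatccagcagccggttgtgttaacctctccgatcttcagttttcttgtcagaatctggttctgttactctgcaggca
Fgf7: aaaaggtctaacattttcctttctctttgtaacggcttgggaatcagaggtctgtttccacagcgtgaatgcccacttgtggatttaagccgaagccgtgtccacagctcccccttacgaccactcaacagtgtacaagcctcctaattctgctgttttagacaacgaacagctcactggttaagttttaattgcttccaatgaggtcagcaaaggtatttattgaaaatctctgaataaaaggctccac
Fgf9: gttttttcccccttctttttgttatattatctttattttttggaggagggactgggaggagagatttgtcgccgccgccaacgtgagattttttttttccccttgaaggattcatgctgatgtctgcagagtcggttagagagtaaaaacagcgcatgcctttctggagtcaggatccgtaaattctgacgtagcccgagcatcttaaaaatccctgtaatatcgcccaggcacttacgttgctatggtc
Fgf18: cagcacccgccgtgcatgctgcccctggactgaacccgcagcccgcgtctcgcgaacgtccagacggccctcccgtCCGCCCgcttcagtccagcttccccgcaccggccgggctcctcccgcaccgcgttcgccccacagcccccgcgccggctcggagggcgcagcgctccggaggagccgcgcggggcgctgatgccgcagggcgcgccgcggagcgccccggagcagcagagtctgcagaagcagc
The Fgfr2 and Fgf7 windows held 2 and 6 CpG dinucleotides, and those of Fgf9 and Fgf18 held 11 and 37, where the median over 32851 RefSeq promoter windows of this length was 6. A GC box occurred once in the Fgf18 window and in none of the other three. None of the 4 windows held the TATA box TATAAA, the Runx core ACCACA or the Sox core AACAAT on either strand. Over all promoter windows, 32.7% held the GC box, 12.4% the TATA box, 14.0% the Runx core and 9.42% the Sox core.

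The libraries held 17580677 to 31332475 counts. Levels are given as CPM, the counts of a gene relative to the library's total after scaling by the trimmed mean of M-values (TMM), and genes are compared with each other only as TPM, which also divides by exon length. Differences were tested with edgeR's quasi-likelihood test over 18648 genes in 1 fit of all 12 libraries, and a gene was called where the adjusted p (FDR) was under 0.1 and the fold change above 2. The genes of the sorting markers followed the labels in part. Itga8 was at 35.2 to 199 CPM in Itga8+ MSCs and at most 4.17 CPM in Itga8- BLCs, and Ly6a, which encodes Sca-1, was at 611 to 658 CPM in Sca-1+ MSCs. Itga8 was also at 53.1 to 82.9 CPM in CD51+CD140a+ MSCs. Alcam was low in the Alcam+ populations, at 1.29 to 5.81 CPM, and at most 0.221 CPM elsewhere. Pdgfra, which encodes CD140a, was at 681 to 867 CPM in CD51+CD140a+ MSCs but also at 734 to 1020 CPM in the Sca-1+ libraries, and Itgav, which encodes CD51, overlapped between these populations (121 to 195 and 126 to 150 CPM). Osteoblast markers summed to 44800 to 117000 CPM in Itga8- BLCs and 2930 to 9170 CPM in Itga8+ MSCs. They summed to 18400 to 22100 CPM in Sca-1+ and 10400 to 21000 CPM in CD51+CD140a+ MSCs. Markers of LepR+ stroma summed to 47500 to 65700 CPM in CD51+CD140a+ MSCs and at most 825 CPM elsewhere. Cartilage markers summed to 16100 to 126000 CPM in Itga8+ MSCs and 15700 to 80100 CPM in Itga8- BLCs, against 9250 to 9870 CPM in the Sca-1+ and 576 to 1470 CPM in the CD51+CD140a+ libraries, and all 8 of these markers were above 1 CPM in every population. Tendon fibroblast markers summed to 13000 to 24700 CPM in Itga8+ MSCs, 3800 to 6620 CPM in Itga8- BLCs and 6640 to 9860 CPM in Sca-1+ MSCs. They summed to 8900 to 10000 CPM in CD51+CD140a+ MSCs, where 3 of the 7 had a mean of at least 1 CPM. Adventitial fibroblast markers summed to 2600 to 3120 CPM in Sca-1+ MSCs and at most 132 CPM elsewhere. Cell cycle genes ran from 188 to 816 CPM, and endothelial and muscle markers reached at most 111 and 37.8 CPM in any library. Itga8+ replicate 2 and Itga8- replicate 3 had the lowest cartilage sums of their populations (16100 and 15700 CPM), and genes of over 5 kb of exon were low in them against genes of under 2 kb (difference of median log2 deviations from the population mean, -1.54 and -0.925). The same measure was 0.383 and 1.085 in Itga8+ replicates 1 and 3 and -0.001 and 1.002 in Itga8- replicates 1 and 2, so that the Itga8- libraries were spread evenly, and it ran from -0.242 to 0.127 in the other 6 libraries. Itga8+ replicate 2 also held the most myeloid and lymphoid markers (7020 CPM against 579 to 1190 CPM in the other two) and erythroid markers (1600 CPM against 125 to 158 CPM). In these sorted pools, fewer cells of a type and less RNA per cell cannot be told apart.

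Among the receptors, Fgfr2 (chromosome 7, 130162451 to 133123350, minus strand, mm10) showed the clearest difference between populations. It encodes a receptor tyrosine kinase of the osteoblast lineage and of epithelia. The 3 CD51+CD140a+ libraries held 1534, 1925 and 1658 CPM. Itga8+ MSCs held 135.1, 37.2 and 161.9 CPM, Itga8- BLCs 104.6, 205.6 and 64.7 CPM, and Sca-1+ MSCs 71.0, 89.7 and 87.4 CPM. Every CD51+CD140a+ library lay above every other library, and the other 3 populations overlapped. Fgfr2 was 15.3-fold lower in Itga8+ than in CD51+CD140a+ MSCs (log2 fold change -3.94, SE 0.558, FDR 0.000297), 13.6-fold lower in Itga8- BLCs (log2 fold change -3.77, SE 0.553, FDR 0.000369) and 20.6-fold lower in Sca-1+ MSCs (log2 fold change -4.37, SE 0.569, FDR 0.000187). No difference was called among the other 3 populations, where the log2 fold changes ran from -0.17 to 0.60 with FDR of 0.416 to 0.963. Of the Fgfr2 exon bases, 3.04% overlap Ctbp2 on the same strand.

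Fgfr3 (chromosome 5, 33721674 to 33737068, plus strand) was highest on average in the Alcam+ populations and lowest in Sca-1+ MSCs. Its levels were 324.0, 37.4 and 572.6 CPM in Itga8+ MSCs and 255.5, 521.7 and 82.2 CPM in Itga8- BLCs. They were 63.4, 35.7 and 93.5 CPM in CD51+CD140a+ MSCs and 10.1, 13.6 and 8.76 CPM in Sca-1+ MSCs. All Sca-1+ libraries lay below all other libraries, while the Alcam+ and CD51+CD140a+ libraries overlapped. Against Sca-1+ MSCs, Fgfr3 was 28.8-fold higher in Itga8+ MSCs (log2 fold change 4.85, SE 0.924, FDR 0.00477) and 26.5-fold higher in Itga8- BLCs (log2 fold change 4.73, SE 0.919, FDR 0.00406). Without Itga8+ replicate 3 the first of these log2 fold changes was 4.04, and without Itga8- replicate 2 the second was 3.93. The calls against CD51+CD140a+ MSCs were less firm: 4.85-fold for Itga8+ MSCs (FDR 0.0554) and 4.46-fold for Itga8- BLCs (FDR 0.0653), each lost in 7 of 22 alternative analyses, with log2 fold changes of 1.51 without Itga8+ replicate 3 and 1.39 without Itga8- replicate 2. The first call ended without Itga8+ replicate 3 and the second without Itga8- replicate 1 or 2, and both ended without CD51+CD140a+ replicate 1 or 2. The difference between Sca-1+ and CD51+CD140a+ MSCs (log2 fold change -2.57, SE 0.835, FDR 0.0548) was also lost in 7 of 22, among them each Sca-1+ library left out and CD51+CD140a+ replicates 1 and 3 left out.

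Fgfr3 and several other members moved with the cartilage markers across the Alcam+ libraries. In Itga8+ MSCs the cartilage sums were 80200, 16100 and 126000 CPM and Fgfr3 was at 324.0, 37.4 and 572.6 CPM in replicates 1, 2 and 3. In Itga8- BLCs the sums were 46900, 80100 and 15700 CPM beside 255.5, 521.7 and 82.2 CPM of Fgfr3. The order of the libraries was the same for both measures in each population, and Fgfr2, Fgfrl1 and Fgf2 had this order too. Col2a1, the main collagen gene of cartilage, was at 60200, 7590 and 105000 CPM in Itga8+ MSCs. The part of cartilage cells, or of the gene length trend, in the levels of these genes was not tested. Of the Fgfr3 exon bases, 13.9% lie opposite G630022F23Rik, and since the strand setting of the counting is not given in the sources used here, reads of this stretch cannot be assigned to one of the pair with certainty.

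Fgfr4 and Fgfrl1 were also highest in the Alcam+ populations. Fgfr4 (chromosome 13, 55152640 to 55168759, plus strand), known for the control of bile acid synthesis in the liver, was low throughout, with 170, 25 and 124 counts (8.41, 1.30 and 7.16 CPM) in Itga8+ MSCs and 73, 117 and 36 counts (3.63, 5.42 and 2.16 CPM) in Itga8- BLCs. The 3 Sca-1+ libraries held 0 counts, which allows up to 3 counts per library, and the CD51+CD140a+ libraries held 0, 0 and 11 counts. Every Alcam+ library lay above every library of the other populations. Against this floor of 3 counts per library in Sca-1+ MSCs, Fgfr4 was at least 36.8-fold higher in Itga8+ MSCs (FDR 0.00794) and at least 24.4-fold higher in Itga8- BLCs (FDR 0.00828). Against CD51+CD140a+ MSCs the log2 fold changes were 5.57 (SE 1.31, FDR 0.0104) and 4.98 (SE 1.28, FDR 0.0156). These values rest on CD51+CD140a+ replicate 3, without which that population was at 0, and without replicate 1 they were 4.97 and 4.39. As with Fgfr3, the lowest Fgfr4 level of each Alcam+ population was in the library with the lowest cartilage sum.

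Fgfrl1 (chromosome 5, 108692382 to 108706924, plus strand) was at 376.4, 93.8 and 395.5 CPM in Itga8+ MSCs and 252.1, 348.6 and 171.1 CPM in Itga8- BLCs. CD51+CD140a+ MSCs held 127.6, 117.4 and 155.0 CPM and Sca-1+ MSCs 36.5, 37.1 and 38.6 CPM. The Sca-1+ libraries were the lowest, and Itga8+ replicate 2 fell below all CD51+CD140a+ libraries. Sca-1+ MSCs differed from each of the other populations. Fgfrl1 was 7.71-fold higher in Itga8+ MSCs (log2 fold change 2.95, SE 0.480, FDR 0.00185) and 6.88-fold higher in Itga8- BLCs than in Sca-1+ MSCs (log2 fold change 2.78, SE 0.476, FDR 0.00187). It was 3.56-fold lower in Sca-1+ than in CD51+CD140a+ MSCs (log2 fold change -1.83, SE 0.460, FDR 0.0154). Itga8+ MSCs were called above CD51+CD140a+ MSCs at 2.16-fold (FDR 0.0813), a call that was lost in 14 of 22 alternatives, and Itga8- BLCs were not (log2 fold change 0.95, SE 0.449, FDR 0.130). Removal of any single Sca-1+ or CD51+CD140a+ library, of Itga8+ replicate 1 or 3, or of Itga8- replicate 1, ended the first call. With both Itga8+ replicate 2 and Itga8- replicate 3 left out, the second difference passed (log2 fold change 1.17, FDR 0.00132).

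Fgfr1 (chromosome 8, 25513654 to 25575718, plus strand), a receptor used broadly by mesenchymal cells, varied least among the receptors, with means of 110.2 to 201.0 CPM. Its levels were 227.2, 41.8 and 213.4 CPM in Itga8+ MSCs, 236.4, 279.1 and 87.4 CPM in Itga8- BLCs. Sca-1+ MSCs held 171.6, 216.4 and 181.9 CPM, and CD51+CD140a+ MSCs 115.7, 106.5 and 108.3 CPM. Sca-1+ MSCs lay above CD51+CD140a+ MSCs in every library, and all other pairs of populations overlapped. No comparison was called, with log2 fold changes of -0.32 to 0.87, SE of 0.536 to 0.540 and FDR of 0.241 to 0.934. Without Itga8+ replicate 2 the difference between Itga8+ and CD51+CD140a+ MSCs passed (log2 fold change 1.02, FDR 0.0668). With Itga8- replicate 3 left out as well, Fgfr1 was called higher than in CD51+CD140a+ MSCs in Itga8+ MSCs (log2 fold change 1.03, FDR 0.00143) and in Itga8- BLCs (log2 fold change 1.23, FDR 0.000463). Fgfr1 has 9875 bases of exon, and the part of the gene length trend in its levels was not tested.

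**Figure D1:**
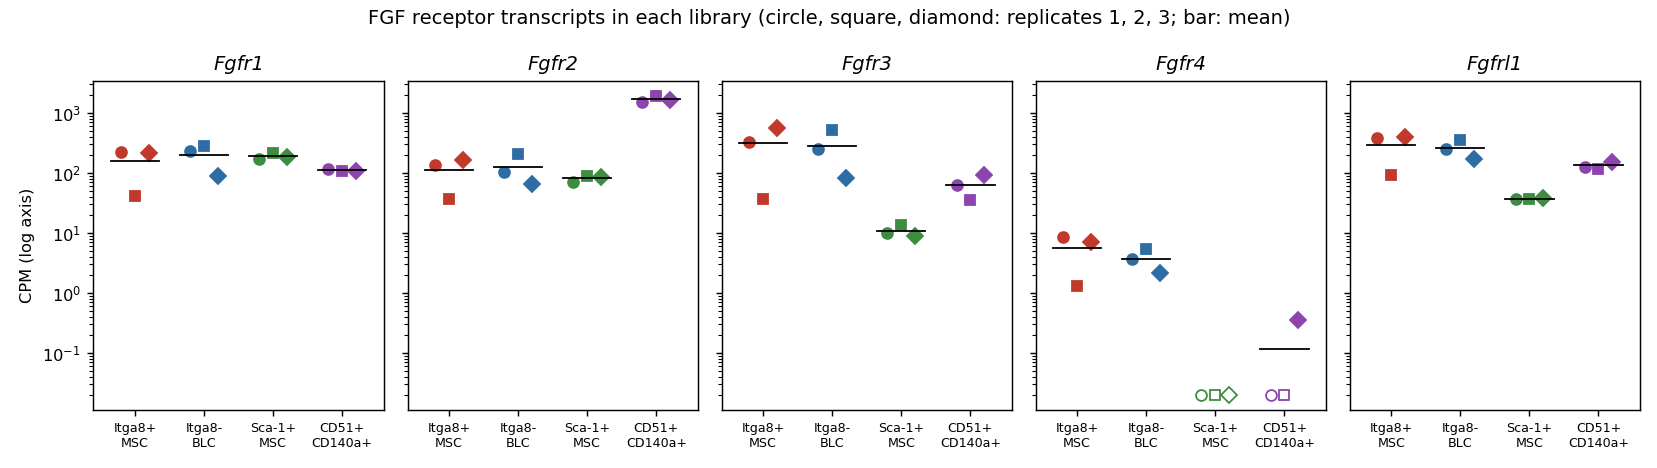
Levels of the 5 FGF receptor genes (CPM on a log axis) in the 12 libraries, by population. Filled symbols are libraries, open symbols at the lower edge are libraries with 0 counts, and bars are means of 3 libraries. Fgfr2 stands at 1534 to 1925 CPM in CD51+CD140a+ MSCs, Fgfr4 is at 0 counts in the 3 Sca-1+ libraries, and the squares of Itga8+ MSCs (replicate 2) lie lowest of their population in every panel.

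Among the ligands, Fgf7 (chromosome 2, 126034658 to 126091185, plus strand) shared the highest population with Fgfr2. CD51+CD140a+ MSCs held 231.3, 198.8 and 246.3 CPM and Sca-1+ MSCs 18.6, 26.2 and 19.9 CPM. Itga8+ MSCs held 0.396, 3.84 and 1.56 CPM and Itga8- BLCs 1.89, 0.510 and 1.02 CPM, which correspond to 8 to 74 counts per library. The populations separated into 3 levels without overlap, CD51+CD140a+ MSCs above Sca-1+ MSCs above both Alcam+ populations, and the Alcam+ populations overlapped. Fgf7 was 10.5-fold lower in Sca-1+ MSCs than in CD51+CD140a+ MSCs (log2 fold change -3.39, SE 0.632, FDR 0.00247), 116-fold lower in Itga8+ MSCs (log2 fold change -6.86, SE 0.751, FDR 4.9e-05) and 197-fold lower in Itga8- BLCs (log2 fold change -7.62, SE 0.780, FDR 2.99e-05). Against Sca-1+ MSCs the log2 fold changes were -3.48 in Itga8+ MSCs (FDR 0.0042) and -4.24 in Itga8- BLCs (FDR 0.00121). Without Itga8+ replicate 2 the values for Itga8+ MSCs were -7.84 against CD51+CD140a+ MSCs and -4.49 against Sca-1+ MSCs, and without Itga8- replicate 1 those for Itga8- BLCs were -8.22 and -4.87. The Alcam+ populations were not called apart (log2 fold change 0.76, SE 0.635, FDR 0.750).

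Fgf18 (chromosome 11, 33117430 to 33147400, minus strand) was ordered Sca-1+ MSCs, Itga8+ MSCs, Itga8- BLCs and CD51+CD140a+ MSCs, and no 2 populations overlapped. The levels were 20.96, 19.8 and 22.7 CPM in Sca-1+ MSCs, 7.37, 14.1 and 9.70 CPM in Itga8+ MSCs and 1.64, 1.95 and 2.04 CPM in Itga8- BLCs. The CD51+CD140a+ libraries held 1, 0 and 4 counts (0.0273, 0 and 0.129 CPM). Fgf18 was 5.53-fold higher in Itga8+ MSCs than in Itga8- BLCs (10.4 ± 3.43 against 1.88 ± 0.207 CPM, SD, n = 3 each; edgeR log2 fold change 2.47, SE 0.507, FDR 0.0222), and this call held in all 22 alternatives, with log2 fold changes of 2.21 to 2.72. In the same comparison 1.66% of all tested genes were called higher and 2.16% lower in Itga8+ MSCs, and the count for the FGF genes was 1 of 10 higher and 0 of 10 lower. At an unadjusted p under 0.05 the counts were the same, and DESeq2 also called 1 gene, Fgf18. The highest Fgf18 level in Itga8+ MSCs was in replicate 2, the library with the lowest levels of all 5 receptors in that population. Fgf18 has 1187 bases of exon, and replicate 2 was high in genes of short exon length, whose part in the Fgf18 level was not tested. Tendon markers moved with this difference: all 7 were at 1 CPM or more in both Alcam+ populations, and their sums were 13000, 14800 and 24700 CPM in Itga8+ MSCs and 4900, 6620 and 3800 CPM in Itga8- BLCs. Scx, a transcription factor of tendon cells, was at 131, 442 and 296 CPM against 17.0, 10.8 and 22.7 CPM, and Tnmd, which encodes tenomodulin, at 638, 5330 and 1540 CPM against 32.9, 20.3 and 33.7 CPM. Within Itga8+ MSCs these 2 genes had the library order of Fgf18, while the sum did not. In Sca-1+ MSCs, where Fgf18 was highest, the tendon markers lay below all Itga8+ libraries. Scx was at 23.9, 32.2 and 45.3 CPM there, Tnmd at 73.8, 75.8 and 125 CPM, and the sums were 6640, 8210 and 9860 CPM. The part of tendon cells in the Fgf18 level was not tested.

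The next step in the Fgf18 order was less certain. The difference between Itga8+ and Sca-1+ MSCs was not called (log2 fold change -1.02, SE 0.477, FDR 0.160), though it passed in 5 of 22 alternatives. Among these were the omission of Itga8+ replicate 2 (log2 fold change -1.33, FDR 0.0915), of that library with Itga8- replicate 3 (log2 fold change -1.28, FDR 0.0738) and of CD51+CD140a+ replicate 3 (FDR 0.0992). Itga8- BLCs were 11.2-fold below Sca-1+ MSCs (log2 fold change -3.49, SE 0.526, FDR 0.000824). Against CD51+CD140a+ MSCs the log2 fold changes were 7.56 in Itga8+ MSCs (SE 0.688, FDR 1.32e-05), 5.09 in Itga8- BLCs (SE 0.658, FDR 0.000155) and 8.58 in Sca-1+ MSCs (SE 0.707, FDR 6.36e-06). The size of these 3 values rests on the 5 counts in CD51+CD140a+ MSCs, and without replicate 3, which leaves 1 count, they were 9.06, 6.59 and 10.08.

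Fgf9 (chromosome 14, 58070547 to 58112720, plus strand) was highest in Sca-1+ MSCs, with 31.6, 27.5 and 66.2 CPM. Itga8+ MSCs held 24, 16 and 17 counts (1.19, 0.831 and 0.982 CPM) and Itga8- BLCs 2, 38 and 28 counts (0.0996, 1.76 and 1.68 CPM). The CD51+CD140a+ libraries held 0 counts each, which allows up to 3 counts per library. The Sca-1+ libraries lay above all others, and the Alcam+ populations overlapped. Fgf9 was 41.5-fold lower in Itga8+ than in Sca-1+ MSCs (log2 fold change -5.38, SE 0.830, FDR 0.00228) and 35.4-fold lower in Itga8- BLCs (log2 fold change -5.14, SE 0.819, FDR 0.00203). Against the floor of 3 counts per library in CD51+CD140a+ MSCs it was at least 474-fold higher in Sca-1+ MSCs (FDR 8.2e-05), at least 11.3-fold in Itga8+ MSCs (FDR 0.00236) and at least 13.4-fold in Itga8- BLCs (FDR 0.00177).

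Fgf2 (chromosome 3, 37348346 to 37410108, plus strand), a ligand stored in the extracellular matrix on heparan sulphate, had its highest levels in Sca-1+ MSCs as well, at 27.5, 35.8 and 37.4 CPM. Itga8+ MSCs held 12.5, 8.10 and 20.3 CPM, Itga8- BLCs 19.5, 24.1 and 9.65 CPM, and CD51+CD140a+ MSCs 6.23, 6.88 and 4.38 CPM. The order was Sca-1+ MSCs above both Alcam+ populations above CD51+CD140a+ MSCs without overlap, and the Alcam+ populations overlapped. Against CD51+CD140a+ MSCs, Fgf2 was 5.75-fold higher in Sca-1+ MSCs (log2 fold change 2.52, SE 0.432, FDR 0.00136), 3.05-fold higher in Itga8- BLCs (FDR 0.013) and 2.34-fold higher in Itga8+ MSCs (FDR 0.0443). The last call was lost without Itga8+ replicate 3 and without CD51+CD140a+ replicate 3. Itga8+ MSCs were 2.46-fold below Sca-1+ MSCs (log2 fold change -1.30, SE 0.415, FDR 0.0543), a call lost in 6 of 22 alternatives, 4 of them the omission of Itga8+ replicate 1 or 2 or of Sca-1+ replicate 2 or 3. Itga8- BLCs were not called apart from Sca-1+ MSCs (log2 fold change -0.92, SE 0.411, FDR 0.133), except without Itga8- replicate 2 and in 2 other alternatives (log2 fold change -1.24, FDR 0.0760, without that library). Of the Fgf2 exon bases, 9.44% lie opposite Nudt6 and 3.76% overlap Gm43439 on the same strand, so the Fgf2 counts may hold reads of these genes.

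Fgf1 (chromosome 18, 38838673 to 38929472, minus strand), a ligand that binds all the kinase receptors, was called in none of the 6 comparisons. It was at 5.44, 1.45 and 12.2 CPM in Itga8+ MSCs, 9.81, 17.7 and 13.9 CPM in Itga8- BLCs, 22.0, 13.2 and 9.89 CPM in Sca-1+ MSCs and 8.66, 16.5 and 9.21 CPM in CD51+CD140a+ MSCs. All pairs of populations overlapped. The log2 fold changes ran from -1.24 to 0.39, with SE of 0.602 to 0.614 and FDR of 0.184 to 0.911. Without Itga8+ replicate 3, its highest library in that population, Fgf1 was called lower in Itga8+ MSCs than in both Sca-1+ MSCs (log2 fold change -2.15, FDR 0.0294) and CD51+CD140a+ MSCs (log2 fold change -1.72, FDR 0.0446), and limma-trend also called the first of these.

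**Figure D2:**
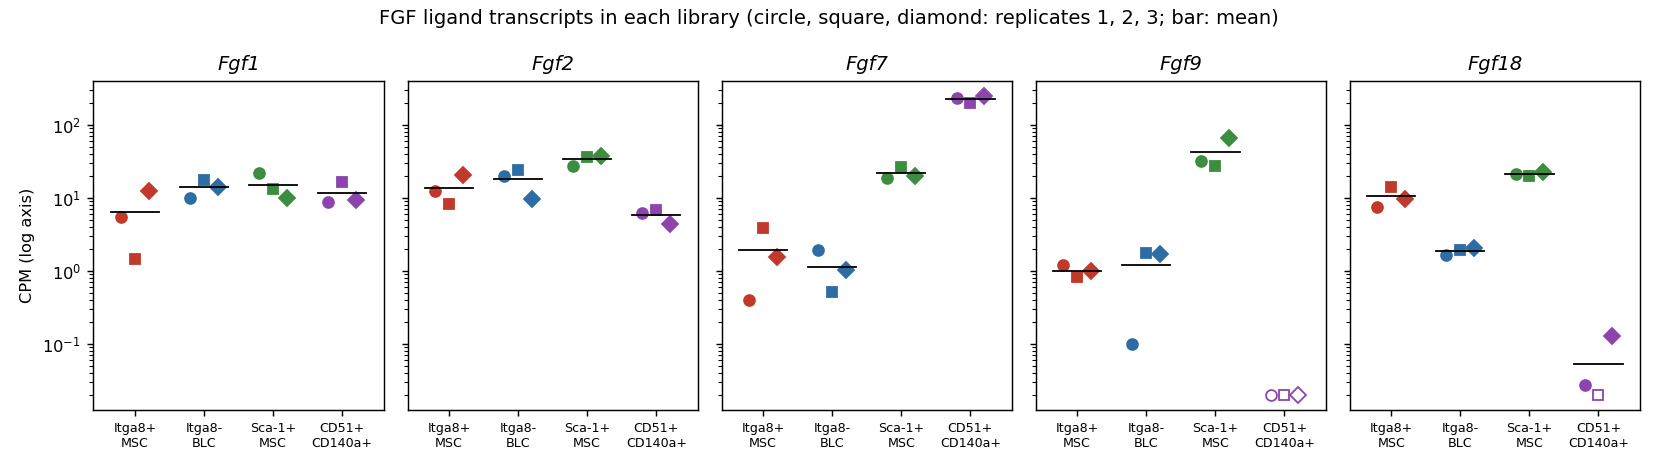
Levels of the 5 FGF ligand genes (CPM on a log axis) in the 12 libraries, by population. Filled symbols are libraries, open symbols at the lower edge are libraries with 0 counts, and bars are means of 3 libraries. Fgf7 lies at 198.8 to 246.3 CPM in CD51+CD140a+ MSCs, Fgf9 is at 0 counts in those libraries, and the 4 populations of Fgf18 do not overlap.

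In TPM, which allows genes to be set beside each other, the make-up of the kinase receptors differed between populations. Fgfr2 made up 87.8, 92.2 and 86.9% of the summed TPM of Fgfr1 to Fgfr4 in CD51+CD140a+ MSCs. The largest share in Sca-1+ MSCs was that of Fgfr1, with 67.7, 67.4 and 65.5%, followed by Fgfr2 with 26.7 to 30.1%. In Itga8+ MSCs Fgfr3 held 54.1, 38.9 and 67.1% and in Itga8- BLCs 50.4, 59.5 and 42.2%. The share of Fgfr3 was the largest in all 6 Alcam+ libraries, while it was 4.35 to 5.86% in the Sca-1+ libraries and 2.47 to 7.07% in the CD51+CD140a+ libraries. Within each Alcam+ population it had the library order of the cartilage sums. In the libraries with the lowest sums, it was 38.9 and 42.2% beside 31.5 and 32.5% of Fgfr1. The part of cartilage cells in this share was not tested. The summed TPM was 743 ± 36.1 in CD51+CD140a+ MSCs and 107 ± 12.4 in Sca-1+ MSCs (SD, n = 3), and 33.3 to 446 in Itga8+ MSCs. The kinase-less Fgfrl1 had a higher TPM than Fgfr3 in each of the 6 Alcam+ libraries, with means of 378.8 ± 255.6 in Itga8+ MSCs and 284.7 ± 137.1 in Itga8- BLCs. It was below Fgfr1 in Sca-1+ MSCs (50.01 ± 0.440 against 71.5 ± 8.72) and below Fgfr2 in CD51+CD140a+ MSCs (192.5 ± 26.3 against 662 ± 53.4).

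The ligands divided in a like manner. Fgf7 made up 96.6, 93.8 and 96.9% of the summed TPM of the 5 ligands in CD51+CD140a+ MSCs. Fgf18 made up 65.9, 80.8 and 58.0% in Itga8+ MSCs and 46.2, 43.5 and 40.8% in Sca-1+ MSCs, where Fgf9 followed with 17.8, 15.4 and 30.4%. In Itga8- BLCs Fgf1 and Fgf2 together were above the other ligands, with means of 34.4 and 35.1%, and Fgf18 held 22.0 ± 4.49%. The Fgf18 share of Itga8+ MSCs lay above that of the other populations in every library. The summed ligand TPM ran from 253 to 320 in the CD51+CD140a+ libraries, from 143 to 170 in Sca-1+ MSCs, from 36.3 to 52.7 in Itga8+ MSCs and from 14.4 to 29.5 in Itga8- BLCs. Levels of RNA do not give levels of protein, and no share was tested.

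**Figure D3:**
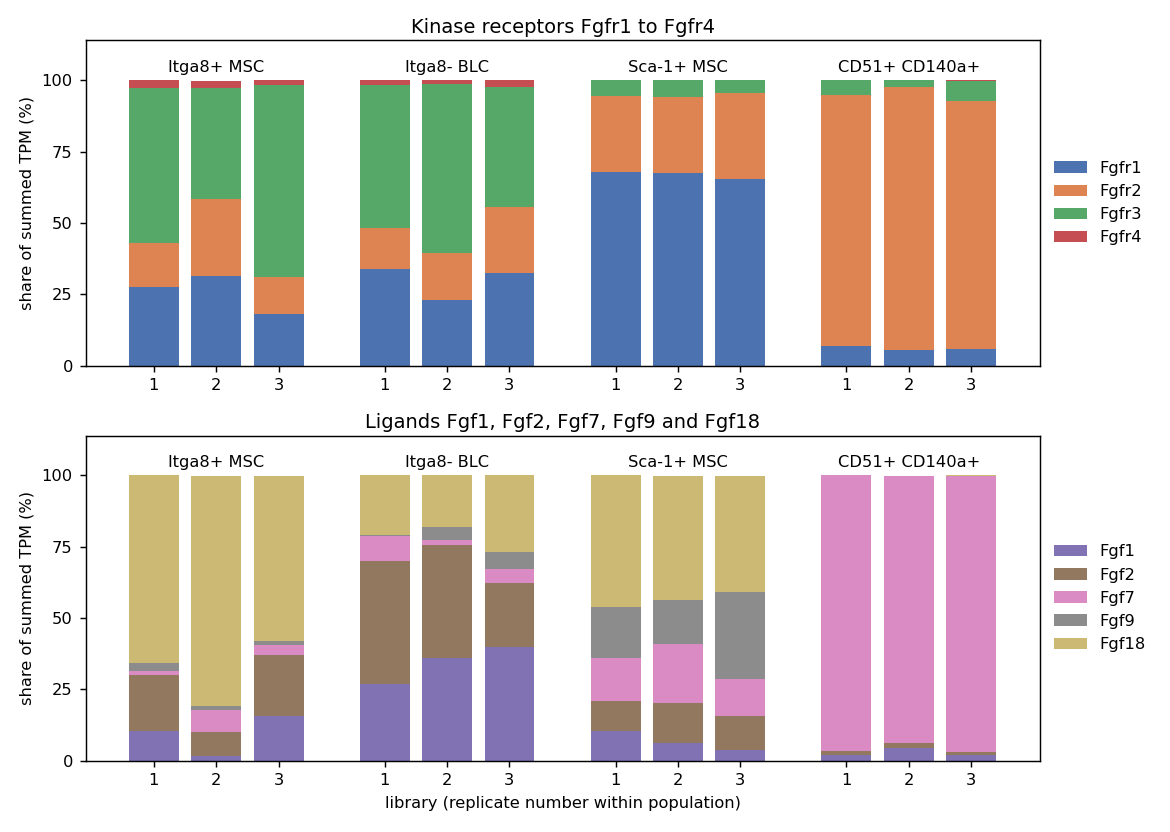
Share of each gene in the summed TPM of the kinase receptors Fgfr1 to Fgfr4 (top, %) and of the 5 ligands (bottom, %), 1 stacked bar for each library. Fgfr2 and Fgf7 fill most of the bars of CD51+CD140a+ MSCs (at least 86.9 and 93.8%), Fgfr1 those of Sca-1+ MSCs in the upper panel, and Fgf18 those of Itga8+ MSCs in the lower panel.

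Over the 6 comparisons, 35 of the 60 gene by comparison pairs were called. Itga8+ MSCs against Sca-1+ MSCs gave 3 genes higher (Fgfr3, Fgfr4 and Fgfrl1) and 3 lower (Fgf2, Fgf7 and Fgf9), where 12.9 and 8.89% of all tested genes were called higher and lower. Against CD51+CD140a+ MSCs, Itga8+ MSCs had 6 genes higher (Fgfr3, Fgfr4, Fgfrl1, Fgf2, Fgf9 and Fgf18) and 2 lower (Fgfr2 and Fgf7), with 21.2 and 14.3% over all genes. Itga8- BLCs against Sca-1+ MSCs gave the same 3 receptor genes higher and Fgf7, Fgf9 and Fgf18 lower, with 14.5 and 11.9% over all genes. Against CD51+CD140a+ MSCs, Itga8- BLCs had 5 genes higher (Fgfr3, Fgfr4, Fgf2, Fgf9 and Fgf18) and 2 lower (Fgfr2 and Fgf7), with 20.4 and 14.9% over all genes. Sca-1+ MSCs against CD51+CD140a+ MSCs gave 3 genes higher (Fgf2, Fgf9 and Fgf18) and 4 lower (Fgfr2, Fgfr3, Fgfrl1 and Fgf7), with 11.2 and 9.3% over all genes. In each of these 5 comparisons 2 to 6 of the 10 genes were called in each direction, a larger share than over all genes, which is a description with no test. The comparisons share populations, so their counts are not independent. Without Itga8+ replicate 2 and Itga8- replicate 3 the counts of called genes in the order given, starting with Itga8+ MSCs against Itga8- BLCs, were 1, 7, 9, 6, 9 and 7.

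**Figure D4:**
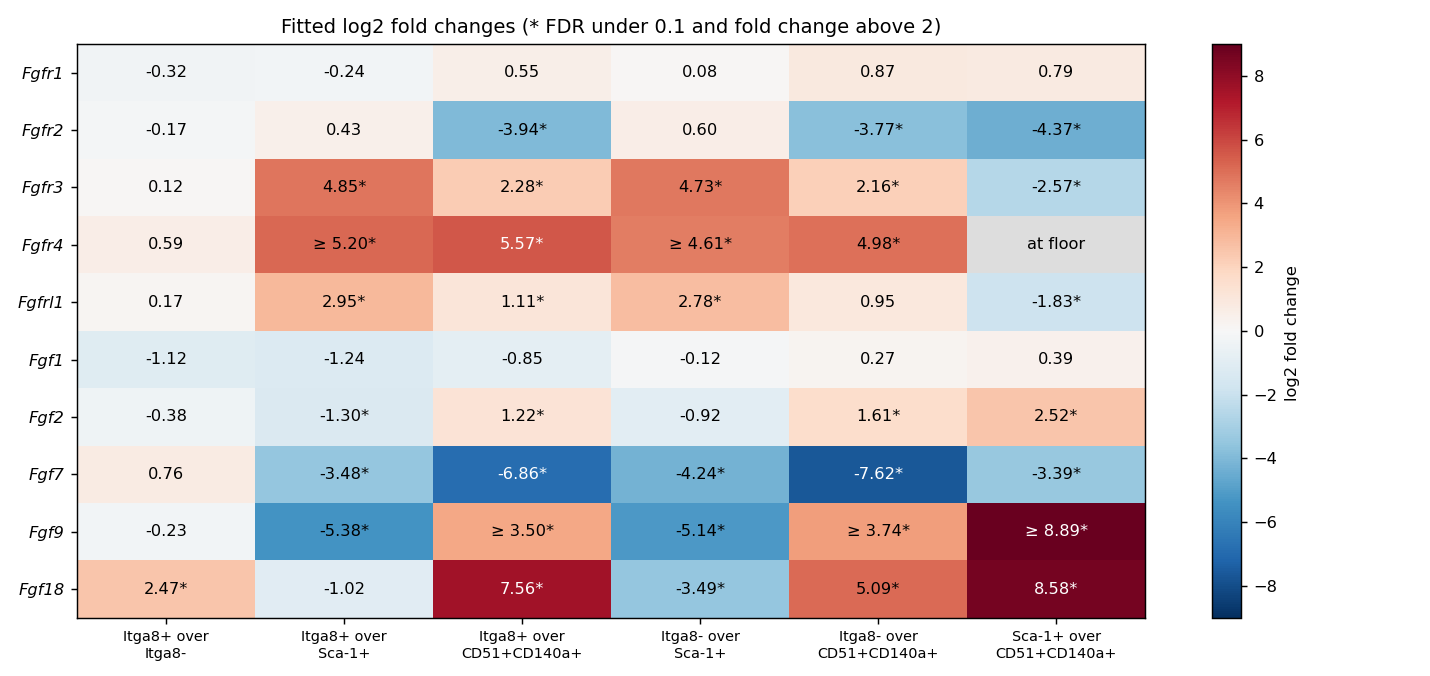
Fitted log2 fold changes of the 10 genes (rows) in the 6 comparisons of populations (columns), first population over second. Asterisks mark FDR under 0.1 with a fold change above 2, lower bounds are given where the second population held 0 counts, and the grey cell is Fgfr4 near or at 0 in both populations. The first column, Itga8+ over Itga8-, holds 1 asterisk, at Fgf18 (2.47).

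The other genes of the pathway were taken from 6 lists with 68 genes, of which 67 were in the files and 60 were tested. In Itga8+ MSCs, 4 of the 60 were called higher and 1 lower than in Itga8- BLCs, 10 higher and 8 lower than in Sca-1+ MSCs, and 10 higher and 9 lower than in CD51+CD140a+ MSCs. These counts are 6.67 and 1.67%, 16.7 and 13.3%, and 16.7 and 15.0% of the pathway genes, against 1.66 and 2.16%, 12.9 and 8.89%, and 21.2 and 14.3% of all tested genes. In the comparisons with Sca-1+ and CD51+CD140a+ MSCs the shares were near those of all genes, and the counts of the lists are no result about the pathway there. Of the 13 further ligands 7 were tested, and in Itga8+ MSCs 0 were higher and 2 lower than in Sca-1+ MSCs, while 1, Fgf21, was higher than in CD51+CD140a+ MSCs. Fgf21 was at 0, 4.36 and 0.751 CPM in Itga8+ replicates 1, 2 and 3 and at 0 in the CD51+CD140a+ libraries, so its level rested mostly on replicate 2. The 2 lower genes were Fgf10, a ligand of limb and lung development, at 10.5, 11.5 and 9.79 CPM in Sca-1+ MSCs, and Fgf16 at 7.58, 8.64 and 8.39 CPM. In the other 9 libraries Fgf10 was at 0 to 0.173 CPM and Fgf16 at 0 to 0.208 CPM. The FDR of the difference between Itga8+ and Sca-1+ MSCs was 0.000999 for Fgf10 and 0.0033 for Fgf16.

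The feedback inhibitors and transcriptional targets of FGF signalling, 14 of 16 listed genes tested, held 4 of the 5 pathway genes called between the Alcam+ populations, with 4 of 14 higher and 0 lower in Itga8+ MSCs than in Itga8- BLCs, where 1.66 and 2.16% of all genes were called. In the fit of these 2 populations alone 0 of the 14 were higher and 0 lower. Spry1, a Sprouty inhibitor of Ras-MAPK signalling, was at 78.9, 48.0 and 180 CPM in Itga8+ MSCs and 17.3, 23.0 and 16.0 CPM in Itga8- BLCs (log2 fold change 2.45, SE 0.418, FDR 0.00794). Etv1, a transcription factor of the Pea3 group, was at 8.11, 19.8 and 19.5 CPM against 3.73, 4.17 and 4.32 CPM (log2 fold change 1.95, SE 0.421, FDR 0.0292). The libraries did not overlap for either gene. Etv4 (FDR 0.0752) and Il17rd (FDR 0.0999), a membrane inhibitor of FGF signalling also called Sef, were near the threshold and were lost in 10 and 13 of 22 alternatives, among them the fit without Itga8+ replicate 2 and Itga8- replicate 3, which left 2 genes higher. Spry1 was lost in the fit of these 2 populations alone and in no other alternative, and Etv1 in that fit and without Itga8- replicate 1. The osteoblast and tendon marker sums also differed between these 2 populations, and their part in the levels of these genes was not tested.

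Against CD51+CD140a+ MSCs, 2 of the 14 targets were higher in Itga8+ MSCs and 5 were lower, where 21.2 and 14.3% of all genes were called. The lower genes included Egr1, an immediate early transcription factor (log2 fold change -1.64, FDR 0.00312), and Spred2, an inhibitor of Ras-MAPK signalling whose call (log2 fold change -1.16, FDR 0.0991) was lost in 17 of 22 alternatives. Spry1 reached 946, 960 and 1080 CPM in CD51+CD140a+ MSCs (log2 fold change -3.28, FDR 0.000176). Spry4, another Sprouty inhibitor, was at 176, 161 and 183 CPM there and 15.4, 4.88 and 28.2 CPM in Itga8+ MSCs (log2 fold change -3.42, FDR 0.000945). Dusp4, a phosphatase of MAP kinases, was at 13.2, 12.6 and 13.2 CPM against 0.346, 0.311 and 3.47 CPM (log2 fold change -3.25, FDR 0.0326). For these 3 genes every CD51+CD140a+ library lay above the other 9 libraries, as for Fgfr2. The targets did not move as one group: Ccnd1, the gene of cyclin D1, was at 24.5, 134 and 58.7 CPM in Itga8+ MSCs and 2.43, 1.46 and 1.38 CPM in CD51+CD140a+ MSCs (log2 fold change 5.36, FDR 8.74e-05), and Etv4 was at 6.92, 2.96 and 4.68 CPM in Itga8+ MSCs and 0, 0 and 0.0322 CPM in CD51+CD140a+ MSCs. Dusp6, a further phosphatase of this list, was at 108 ± 12.3 CPM in CD51+CD140a+ MSCs and 80.9 ± 24.7 CPM in Itga8+ MSCs (SD, n = 3) and was not called. Against Sca-1+ MSCs, 3 of 14 targets were higher in Itga8+ MSCs, among them Ccnd1 (log2 fold change 3.28, FDR 0.00296) and Dusp5 (log2 fold change 2.13, FDR 0.0276, lost without Sca-1+ replicate 3), and 0 were lower, where 12.9 and 8.89% of all genes were called.

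**Figure D5:**
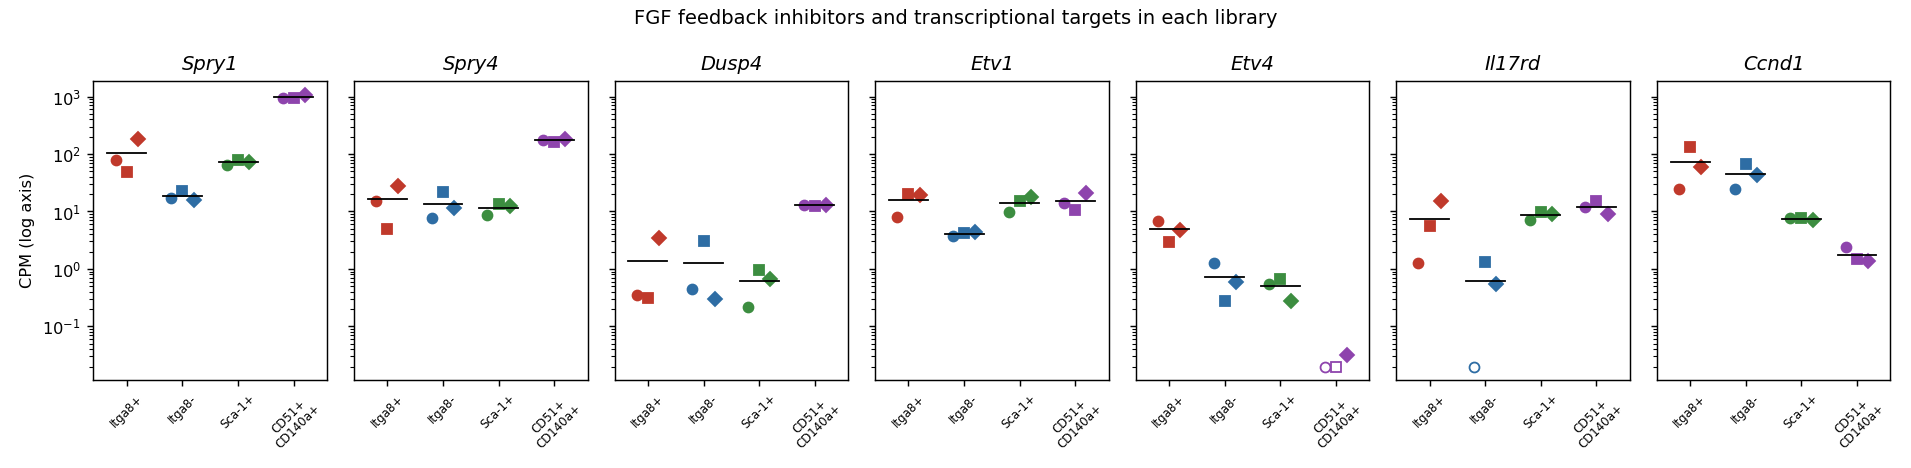
Levels (CPM on a log axis) of 7 of the 14 tested FGF feedback inhibitors and transcriptional targets in the 12 libraries, chosen after their values were seen. Filled symbols are libraries, open symbols at the lower edge are libraries with 0 counts, and bars are means of 3 libraries. Spry1, Spry4 and Dusp4 are highest in CD51+CD140a+ MSCs, Etv4 and Ccnd1 lowest there.

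Among co-receptors and carriers, 3 of 10 genes were higher and 1 lower in Itga8+ than in Sca-1+ MSCs, and 4 were higher and 0 lower than in CD51+CD140a+ MSCs, where 12.9 and 8.89%, and 21.2 and 14.3%, of all genes were called. Against Itga8- BLCs, 0 were higher and 0 lower, where 1.66 and 2.16% of all genes were called. Flrt3, a membrane protein that binds FGF receptors, was at 51.8, 44.3 and 85.0 CPM in Itga8+ MSCs, 3.76, 1.22 and 2.11 CPM in Sca-1+ MSCs and 4.32, 6.22 and 10.1 CPM in CD51+CD140a+ MSCs (log2 fold change 4.67 with FDR 0.000165, and 3.13 with FDR 0.000395). Sdc4, a heparan sulphate proteoglycan, was higher than in both (log2 fold change 1.40, FDR 0.0145, and 1.46, FDR 0.00658), though the first call was lost without Itga8+ replicate 3. Gpc1, another such proteoglycan, was higher than in both as well (log2 fold change 2.11, FDR 0.0472, and 1.66, FDR 0.07), with calls lost in 7 and 9 of 22 alternatives. Sdc2, a syndecan like Sdc4, was lower than in Sca-1+ MSCs (log2 fold change -1.12, FDR 0.0264), a call lost without Itga8+ replicate 1. In Itga8- BLCs, Flrt3 was at 36.0, 42.1 and 41.3 CPM. Sdc4 and Gpc1 had means of 778 and 1080 CPM there, against 352 and 585 CPM in Itga8+ MSCs. Of the 10 enzymes of heparan sulphate, 1 was higher and 3 were lower in Itga8+ than in Sca-1+ MSCs, beside 12.9 and 8.89% of all genes. Against Itga8- BLCs, 0 were higher and 0 lower, beside 1.66 and 2.16% of all genes. The sulphatase genes Sulf1 and Sulf2, whose products remove sulphate groups from heparan sulphate, were at 512 ± 53.4 and 405 ± 67.1 CPM in Sca-1+ MSCs, against 62.4 ± 62.0 and 117 ± 96.6 CPM in Itga8+ MSCs (SD, n = 3; edgeR FDR 0.0132 and 0.0458), and the Sulf2 call was lost in 3 of 22 alternatives, among them the omission of Itga8+ replicate 1 and of Sca-1+ replicate 2. The third lower gene was Hs3st1, a heparan sulphate sulphotransferase (log2 fold change -2.61, FDR 0.0676), whose call was lost in 7 of 22 alternatives. Sulf2 was at 11.6 ± 3.15 CPM in CD51+CD140a+ MSCs, below Itga8+ MSCs (log2 fold change 3.34, FDR 0.00124). Of the 15 adaptors and kinases, 0 were higher and 1 lower in Itga8+ MSCs than in Itga8- BLCs (1.66 and 2.16% over all genes), 1 higher and 2 lower than in Sca-1+ MSCs (12.9 and 8.89%), and 1 higher and 3 lower than in CD51+CD140a+ MSCs (21.2 and 14.3%). Grb2 was lower in Itga8+ MSCs than in Itga8- BLCs (log2 fold change -1.07, FDR 0.0436), a call lost in 8 of 22 alternatives. Ptpn11, a phosphatase, was higher than in Sca-1+ MSCs (log2 fold change 1.38, FDR 0.0420) and CD51+CD140a+ MSCs (log2 fold change 1.5, FDR 0.0177), with calls lost in 5 and 2 of 22 alternatives and both without Itga8+ replicate 2. Braf, a MAPK cascade kinase, was lower than in both (log2 fold change -1.48, FDR 0.0914, and -1.52, FDR 0.0593), with calls lost in 13 and 5 of 22, both without Itga8+ replicate 2 among others, and Shc1, an adaptor, was lower than in CD51+CD140a+ MSCs (log2 fold change -1.48, FDR 0.0239). The remaining lower gene in both comparisons was Frs3, an FGF receptor adaptor. Of the 4 intracellular FGF homologous factors, 0 were called between the Alcam+ populations (1.66% higher and 2.16% lower over all genes). In Itga8+ MSCs 2 were higher and 0 lower than in Sca-1+ MSCs (12.9 and 8.89% over all genes), and 1 was higher and 1 lower than in CD51+CD140a+ MSCs (21.2 and 14.3%). Fgf12, at 0, 1.25 and 0.116 CPM in Itga8+ MSCs, was called higher than in both (FDR 0.0925 and 0.0802), and its calls were lost in 14 and 8 of the 19 alternatives that tested it. Fgf13 was lower in Itga8+ than in CD51+CD140a+ MSCs (log2 fold change -2.88, FDR 0.0285) and higher than in Sca-1+ MSCs (log2 fold change 2.77, FDR 0.0762), the latter call being lost in 7 of 22 alternatives.

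The genes whose levels ran most like those of the members were sought among 12276 genes by Pearson's r on log2 CPM over the 12 libraries, which share the 4 populations and the spread of the Alcam+ libraries by exon length and cartilage markers. For Fgfr2 the closest gene was Spry4 (r = 0.983), and for Fgf7 it was Gpm6b (r = 0.984). Fgfr3 was closest to G630022F23Rik (r = 0.993), with which it shares exon bases, and then to Fgfrl1 (r = 0.982), so that the pair of receptors named each other. Fgfr4 was closest to the cartilage collagen genes Col9a1 and Col9a3 (r = 0.984 and 0.981). Fgf18 was closest to Aqp2 (r = 0.987), Fgf9 to Sprn (r = 0.967), Fgf2 to Bmpr1b (r = 0.971), Fgfr1 to Ralgds (r = 0.971) and Fgf1 to Ccdc117 (r = 0.913).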

How the data were processed

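RNA-seq counts from 12 libraries, 3 for each of 4 sorted mouse populations, were analysed. The authors amplified cDNA from 2000 cells per library with SMART-Seq v4, made Nextera XT libraries, sequenced them on a NextSeq instrument and deposited raw read counts per Ensembl gene, without normalization. The submitters' processing notes name FastQC 0.11.7, Trimmomatic 0.38, HISAT2 2.1.0, SAMtools 1.9, featureCounts 1.6.3 and mm10, whereas the study's methods name TopHat and Bowtie2 for mapping. The annotation release and the strand setting of the counting are not given in the sources used here. Such counts cannot separate PCR copies from molecules, and intervals and floors cover counting error only.

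The 18648 of 49585 genes that reached 0.5 CPM in 1 or more libraries were fitted together with edgeR 4.0.16 (quasi-likelihood test, TMM, R 4.3.3), with population as the only term, for 6 pairwise comparisons. A call needed a Benjamini-Hochberg FDR under 0.1 and more than a 2-fold change, as in the study. The SE given with edgeR results was derived from the test, as the absolute log2 fold change over the square root of its F statistic. Exact permutation of 3 libraries against 3 cannot go below p = 0.1 and was not used. A level was at the floor at 3 counts per library. TPM used the union of exons in GENCODE M21, the source of positions and overlaps; 259 gene identifiers were not in that release. Promoter windows came from RefSeq (GRCm38.p6); 8 of the 10 members matched, all but Fgfr1 and Fgf1. Alternatives were DESeq2 1.42.0, limma-trend 3.58.1, RLE size factors, library totals alone, 2 other filters, fits of 2 populations, a replicate block, FDR under 0.05, each library left out and, added after seeing the data, Itga8+ replicate 2 and Itga8- replicate 3 left out together. The fits were also run on simulated counts with the same spread for all genes, changes in Itga8+ MSCs alone and no gene length trend. That setting is simpler than these libraries and does not show how the fits behave on them.

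The members and lists were chosen with earlier results of these data known. Named were all 10 members, pathway genes called in a comparison of Itga8+ MSCs with at least 5 CPM in the higher population (up to 4 per list and comparison, by size of change), the genes most like each member, and Dusp6, Egr1, Spred2, Frs3, Fgf12, Scx, Tnmd, Etv4 in CD51+CD140a+ MSCs and the genes plotted as FGF targets, chosen after their values were seen. The 10 marker lists covered osteoblast, cartilage, tendon fibroblast, LepR+ stroma, adventitial fibroblast, endothelial, myeloid and lymphoid, erythroid, muscle and cell cycle genes.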

Additional observations from a re-analysis of the deposited data

How the results depend on the processing

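Of the 35 called differences of the FGF genes, 29 kept their call in all 22 alternatives, and none of the 35 changed direction. The counts of called genes for Itga8+ MSCs against Itga8- BLCs, Sca-1+ and CD51+CD140a+ MSCs, Itga8- BLCs against Sca-1+ and CD51+CD140a+ MSCs, and Sca-1+ against CD51+CD140a+ MSCs (1, 6, 8, 6, 7 and 7) stayed within 1.5 times in every alternative. With each library left out they ranged over 1, 5 to 7, 6 to 9, 6 to 7, 6 to 7 and 6 to 7. A block for the replicate number gave 1, 5, 6, 6, 6 and 6. Same-numbered libraries correlated in their deviations from the population mean at -0.582 to 0.204 over 18 pairs. Different-numbered libraries did so at -0.306 to 0.617 over 36 pairs. These deviations also hold the gene length trend, so they cannot settle whether equal numbers share a mouse or a batch. Directions turned only in differences that were not called, with causes that were not tested. For Itga8+ MSCs against Itga8- BLCs, library totals alone gave log2 fold changes of 0.13 for Fgfr2 and 0.12 for Fgf9, limma-trend -0.22 for Fgfr3, -0.04 for Fgfrl1 and 0.35 for Fgf9, the replicate block -0.04 for Fgfr3 and 0.02 for Fgf9, and the omission of Itga8+ replicate 2 with Itga8- replicate 3 -0.30 for Fgf7 and 0.24 for Fgf9. With single libraries left out, that comparison gave -0.66 to 0.15 for Fgfr1, -0.52 to 0.41 for Fgfr2, -0.64 to 0.90 for Fgfr3, -0.11 to 0.61 for Fgfrl1, -0.22 to 1.35 for Fgf7 and -0.76 to 0.22 for Fgf9. Fgfr1 in Itga8+ against Sca-1+ MSCs gave -0.57 to 0.20, and 0.24 without both libraries. In Itga8- BLCs against Sca-1+ MSCs, single omissions gave -0.27 to 0.44 for Fgfr1, -0.01 to 0.91 for Fgfr2 and -0.39 to 0.26 for Fgf1, library totals -0.12 and limma-trend -0.08 for Fgfr1, and against CD51+CD140a+ MSCs library totals gave -0.12 for Fgf1. Library totals alone moved the median of all genes in Itga8+ MSCs against Itga8- BLCs from 0.084 to 0.341 and in Itga8- BLCs against CD51+CD140a+ MSCs from 0.091 to -0.237. Fgfr4 in Sca-1+ against CD51+CD140a+ MSCs was not tested in the fit of these 2 populations, where it missed the filter, and gave no value without CD51+CD140a+ replicate 3. At these depths Fgfr4, Fgf9 and Fgf18 at 0 to 11 counts limit the size of their fold changes, given as bounds where a population was at 0.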
